A study of Mus musculus with 6 samples.

Results

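The cholesterol biosynthesis and SREBP2 genes described here are 28 mouse genes: 20 enzymes, 7 genes of the sterol-sensing machinery and 1 sterol carrier. The enzymes belong to the route that begins with the joining of acetyl-CoA units and ends in cholesterol, except Ggps1, on a branch that leads away. The genes were taken from the deposited gene table by matching the listed gene symbols. All 28 were found, each with 1 gene ID, among 51826 gene rows. All 28 also passed the filter on low counts that left 16071 genes for testing. The libraries were made from RNA of mouse neutrophils, short-lived phagocytes, obtained from bone marrow and exposed to microvesicles, small membrane particles shed by cells. The microvesicles came from Hepa1-6 cells, an established mouse liver cancer line. In the KD_MV group (n = 3 libraries) the Hepa1-6 donor cells carried a knockdown of ezrin, a protein that links the plasma membrane to actin, and in the Ctrl_MV group (n = 3 libraries) the donor cells were wild type. The donor cells of both groups were deprived of glucose, and no neutrophils without microvesicles were analysed here. The comparison therefore asks how transcript levels in the neutrophil libraries differed with the ezrin status of the cells that gave the microvesicles. The labels do not say how the knockdown was made, or whether the libraries of a group came from separate mice or cultures, so p-values here reflect only how these libraries varied, and that variation may be technical.

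Cells make cholesterol from acetyl-CoA through mevalonate, isoprenoid diphosphates, squalene and a series of sterol intermediates. SREBP2, encoded by Srebf2, is the transcription factor that switches on the genes of this route. When sterols in the endoplasmic reticulum are scarce, SCAP carries SREBP2 to the Golgi, where a pair of proteases cuts it and frees its active fragment. When sterols are plentiful, the INSIG proteins hold the complex back. The active fragment binds sterol regulatory elements in promoters, usually together with NF-Y, which binds CCAAT boxes, and Sp1, which binds GC boxes.

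Promoters of 5 genes are printed to show these elements beside genes whose transcripts differed in different ways. Hsd17b7, Mvk and Lss are the genes with the largest increases in KD_MV libraries among those with a single promoter entry, Hmgcs1 is the gene whose window holds the searched sterol regulatory element, and Erlin1 is the gene that fell. Each sequence runs 5′ to 3′ on the strand of its gene, from 250 bases before to 50 bases after the annotated start, in RefSeq's annotation of GRCm38.p6. Capitals mark every match, on either strand, to TCACNCCAC (sterol regulatory element core), CCAAT or its reverse complement (CCAAT box), and GGGCGG or its reverse complement (GC box), and no matches overlapped in these 5 windows. The windows lie at chr1:169969156-169969455 on the minus strand for Hsd17b7, chr5:114444019-114444318 on the plus strand for Mvk, chr10:76531355-76531654 on the plus strand for Lss, chr13:119690101-119690400 on the plus strand for Hmgcs1 and chr19:44069736-44070035 on the minus strand for Erlin1.
Hsd17b7: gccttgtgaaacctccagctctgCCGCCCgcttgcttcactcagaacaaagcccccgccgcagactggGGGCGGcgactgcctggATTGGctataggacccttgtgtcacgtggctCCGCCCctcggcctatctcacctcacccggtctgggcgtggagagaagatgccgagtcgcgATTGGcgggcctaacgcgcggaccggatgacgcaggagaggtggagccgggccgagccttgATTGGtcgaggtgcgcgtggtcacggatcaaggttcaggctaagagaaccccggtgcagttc
Mvk: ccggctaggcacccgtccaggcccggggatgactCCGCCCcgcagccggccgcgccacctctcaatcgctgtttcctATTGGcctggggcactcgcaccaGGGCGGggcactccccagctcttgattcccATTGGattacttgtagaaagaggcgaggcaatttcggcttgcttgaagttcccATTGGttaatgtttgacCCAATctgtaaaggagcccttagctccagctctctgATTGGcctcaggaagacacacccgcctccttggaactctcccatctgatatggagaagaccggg
Lss: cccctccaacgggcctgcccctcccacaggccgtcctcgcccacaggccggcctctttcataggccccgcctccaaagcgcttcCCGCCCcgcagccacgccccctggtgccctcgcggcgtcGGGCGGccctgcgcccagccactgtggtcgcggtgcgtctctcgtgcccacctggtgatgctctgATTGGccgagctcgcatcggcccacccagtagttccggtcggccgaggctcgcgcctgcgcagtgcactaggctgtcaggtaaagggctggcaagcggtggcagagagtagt
Hmgcs1: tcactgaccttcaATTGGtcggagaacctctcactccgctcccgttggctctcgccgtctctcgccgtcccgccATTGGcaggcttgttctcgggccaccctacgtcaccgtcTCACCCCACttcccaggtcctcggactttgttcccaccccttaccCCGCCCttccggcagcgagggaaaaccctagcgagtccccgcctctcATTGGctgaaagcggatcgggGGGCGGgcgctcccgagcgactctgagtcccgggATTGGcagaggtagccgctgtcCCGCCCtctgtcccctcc
Erlin1: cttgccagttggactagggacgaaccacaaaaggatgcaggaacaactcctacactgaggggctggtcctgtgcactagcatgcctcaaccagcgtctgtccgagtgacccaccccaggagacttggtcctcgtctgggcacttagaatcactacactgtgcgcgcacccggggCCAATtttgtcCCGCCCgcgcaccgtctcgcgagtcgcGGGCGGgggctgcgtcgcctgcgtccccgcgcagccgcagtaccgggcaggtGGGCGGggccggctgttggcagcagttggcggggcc
The Hsd17b7 window held 3 CCAAT boxes and 3 GC boxes, and the Mvk window held 5 CCAAT boxes and 2 GC boxes. The Lss window held 1 CCAAT box and 2 GC boxes. The Hmgcs1 window held 1 sterol regulatory element core that began 137 bases before the start, with 4 CCAAT boxes and 3 GC boxes. The Erlin1 window held 1 CCAAT box and 3 GC boxes. Erlin1 has 3 promoter entries, and the one shown has its start nearest to the start of the gene in the deposited table.

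RefSeq promoter entries were matched by symbol for 24 of the 28 genes, while Fdps, Fdft1, Sqle and Stard4 had none. A CCAAT box lay in the window of 20 of the 24 genes (83.3%), against 41.1% of 27025 genes with an entry and 42.8% of the 10591 of them that were tested for expression. A GC box lay in 21 of the 24 (87.5%), against 38.2% of all genes with an entry and 65.5% of the tested ones. Both motifs were present in 18 of the 24. A gene with several entries, as 5 of the 24 have, was counted when any of its windows held the motif. The sterol regulatory element core, as spelled above, was found in 1 of the 24 (4.17%), against 1.44% of all genes with an entry. Among genes with an entry, a CCAAT box was found in 13 of the 15 that rose and in 6 of the 8 that did not pass the test, and a GC box in 14 of the 15 and in 6 of the 8. A match of letters is a description of the window and not a bound site.

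Transcripts of most of the 28 genes were more abundant in KD_MV libraries than in Ctrl_MV libraries. The libraries also held transcripts of markers of other cell types, given below, and which cells held the difference was not tested. By edgeR's quasi-likelihood test, with Benjamini-Hochberg adjusted p under 0.05 over all 16071 genes, 19 of 28 genes were higher in KD_MV libraries (67.9%), 1 was lower (3.57%) and 8 did not pass. Of all genes tested, 27.8% were higher and 24.9% were lower. A rise of more than 1 on the log2 scale was seen in 13 of the 28, against 13.5% of all genes. With libraries scaled by their totals alone, 24 of the 28 were higher and 1 lower, beside 7455 genes higher (46.4%) and 2010 lower (12.5%) in the whole table. The median log2 fold change, KD_MV minus Ctrl_MV, was 0.89 over the 28 genes, with a range from -2.28 to 2.93, and 0.03 over all genes tested. The 3 KD_MV libraries lay wholly above the 3 Ctrl_MV libraries for 19 of the genes, against 32.0% of all genes, and wholly below for 2, Erlin1 and Insig2, against 29.3% of all genes. Because these are bulk samples, fewer cells of a type and less RNA per cell cannot be told apart. Of the 20 enzymes, 16 rose and none fell, with a median log2 fold change of 1.60. The 7 sensing genes divided differently, with 2 that rose, 1 that fell and 4 that did not pass.

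**Figure D1:**
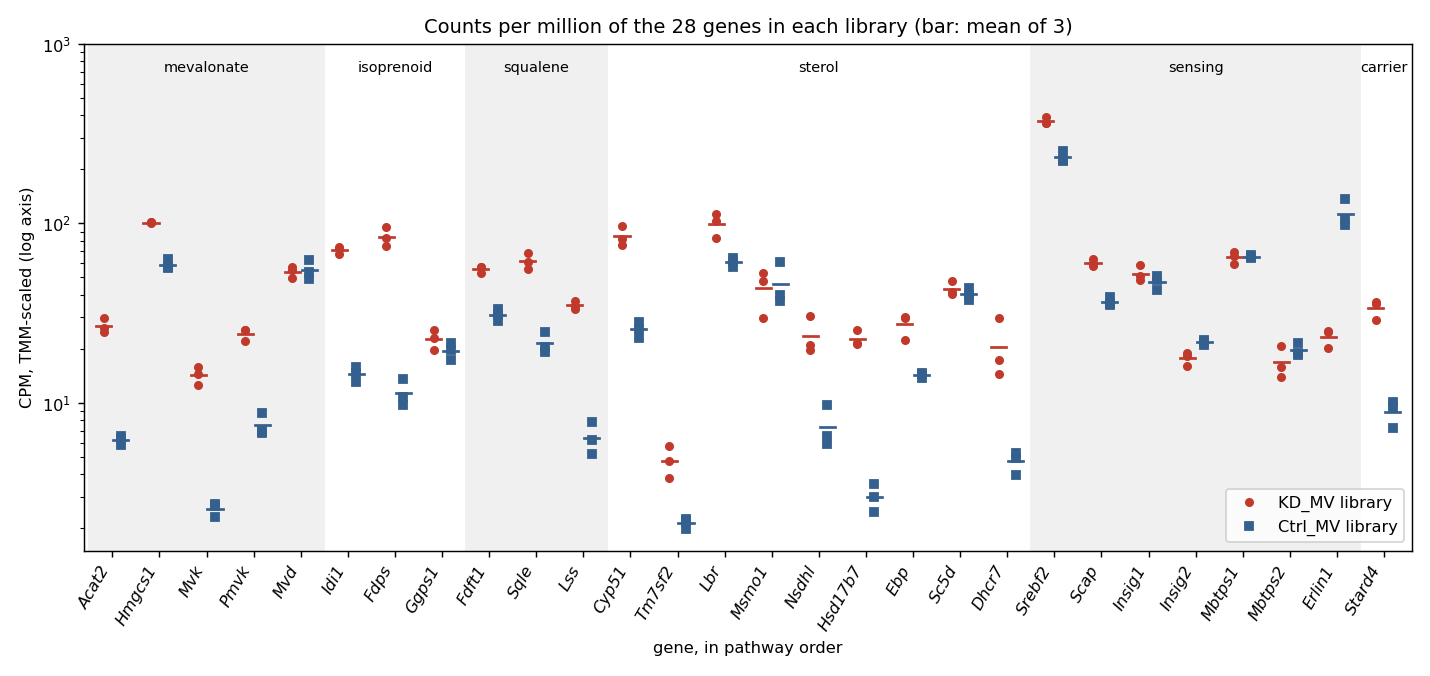
Counts-per-million (CPM), scaled by trimmed mean of M values (TMM), of the 28 genes in each library on a log axis, with KD_MV libraries as red circles to the left of Ctrl_MV libraries as blue squares and a bar at the mean of 3. In 19 genes every KD_MV library is above every Ctrl_MV library, and Erlin1 has the widest separation the other way.

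The plot of CPM by gene shows how tight the 3 libraries of each group were for most genes and how uneven the differences were along the route. In the mevalonate group 4 of 5 genes rose, with a median log2 fold change of 1.69 over the 5. Acat2, which joins acetyl-CoA units, had 26.2, 29.8 and 24.7 counts-per-million (CPM) in KD_MV libraries, against 6.53, 6.30 and 5.78 CPM in Ctrl_MV libraries. Its groups did not overlap, and its log2 fold change was 2.12 ± 0.13 (SE). Acat3, a close relative beside it that may share its reads, had a log2 fold change of 1.26 ± 0.34. Hmgcs1, the synthase that forms HMG-CoA, had 99.9, 101.3 and 101.2 CPM in KD_MV libraries and 57, 56.3 and 63.4 CPM in Ctrl_MV libraries. The KD_MV libraries were nearly equal and all above the Ctrl_MV ones, with a smaller log2 fold change of 0.78 ± 0.09 (adjusted p = 0.000181, edgeR).

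Mvk, the kinase that phosphorylates mevalonate, had 15.9, 12.6 and 14.5 CPM in KD_MV libraries, against 2.73, 2.66 and 2.32 CPM in Ctrl_MV libraries. The difference was 5.57-fold (log2 2.48 ± 0.16, adjusted p = 6.10e-06, edgeR), well outside the spread of either group. Pmvk, the next kinase, averaged 24.3 ± 1.87 CPM in KD_MV libraries and 7.51 ± 1.10 CPM in Ctrl_MV libraries (SD, n = 3 each), a log2 fold change of 1.69 ± 0.14 that passed the test. Mvd, the decarboxylase that closes this stretch by making isopentenyl diphosphate, had 54.9, 57 and 49.7 CPM in KD_MV libraries and 62.5, 53.4 and 48.8 CPM in Ctrl_MV libraries. Its groups overlapped and its log2 fold change of -0.03 ± 0.12 did not pass (adjusted p = 0.868, edgeR).

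The isoprenoid genes held some of the largest increases and 1 gene with little difference. Idi1, the isomerase that interconverts the isoprenoid building blocks, had 67.3, 74.2 and 72.0 CPM in KD_MV libraries, against 15.8, 13.1 and 14.7 CPM in Ctrl_MV libraries. It rose 4.89-fold (log2 2.29 ± 0.11, adjusted p = 1.97e-06, edgeR), the smallest adjusted p among the 28 genes. Fdps, which builds farnesyl diphosphate, had 94.9, 83.3 and 74.5 CPM in KD_MV libraries, against 9.78, 10.7 and 13.6 CPM in Ctrl_MV libraries. It rose 7.42-fold (log2 2.89 ± 0.16, adjusted p = 2.97e-06, edgeR). Ggps1, which extends farnesyl diphosphate to geranylgeranyl diphosphate for protein prenylation and so leads away from cholesterol, had 22.9, 19.8 and 25.5 CPM in KD_MV libraries and 17.3, 19.7 and 21.5 CPM in Ctrl_MV libraries. Its groups overlapped, and its log2 fold change of 0.22 ± 0.14 did not pass (adjusted p = 0.206, edgeR).

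All 3 genes between farnesyl diphosphate and lanosterol rose. Fdft1, squalene synthase and the first enzyme committed to sterols, had 56.9, 53.0 and 56.9 CPM in KD_MV libraries and 30.9, 28.6 and 33.5 CPM in Ctrl_MV libraries, a log2 fold change of 0.84 ± 0.10. Sqle, squalene epoxidase and a rate-limiting enzyme of the route, had 61.2, 55.7 and 68.0 CPM in KD_MV libraries and 20.4, 19.1 and 24.8 CPM in Ctrl_MV libraries, a log2 fold change of 1.52 ± 0.13. Lss, which cyclises squalene epoxide to lanosterol, had 36.8, 34.8 and 33.2 CPM in KD_MV libraries and 6.19, 7.78 and 5.19 CPM in Ctrl_MV libraries, a log2 fold change of 2.45 ± 0.16. In each of the 3 genes the groups were fully separate, and the log2 fold changes became larger from Fdft1 to Lss in pathway order.

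Of the 9 genes that turn lanosterol into cholesterol, 7 rose, with a median log2 fold change of 1.15 over the 9. Hsd17b7, a sterol ketoreductase, had 25.4, 21.6 and 21.4 CPM in KD_MV libraries, against 2.97, 2.45 and 3.52 CPM in Ctrl_MV libraries. The difference of 7.65-fold (log2 2.93 ± 0.17, adjusted p = 3.85e-06, edgeR) was the largest of the 28 genes on this scale. Cyp51, the lanosterol demethylase, had 82.0, 75.9 and 97.0 CPM in KD_MV libraries and 25.7, 23.0 and 28.3 CPM in Ctrl_MV libraries, with a log2 fold change of 1.73 ± 0.13. Nsdhl, a sterol dehydrogenase, rose by 1.68 ± 0.23 on the log2 scale and Ebp, a sterol isomerase, by 0.93 ± 0.14, and in both the groups were separate.

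Dhcr7, the reductase that makes cholesterol from its immediate precursor, had 14.5, 17.4 and 29.5 CPM in KD_MV libraries, against 4.95, 3.97 and 5.25 CPM in Ctrl_MV libraries. The groups did not overlap, although KD_MV replicate 3 stood above the other KD_MV libraries. The log2 fold change was 2.12 ± 0.27 (adjusted p = 0.000231, edgeR), and without KD_MV replicate 3 it was 1.75. In the deposited transcripts-per-million (TPM), the same gene had 20.7, 23.7 and 23.6 TPM in KD_MV libraries and 2.54, 3.36 and 3.15 TPM in Ctrl_MV libraries, so replicate 3 stood apart in counts and not in TPM.

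The enzymes of the same sterol stretch that did not pass the test are Msmo1 and Sc5d. Msmo1, a sterol methyl oxidase, had 29.7, 53.0 and 47.8 CPM in KD_MV libraries and 40.0, 36.9 and 60.8 CPM in Ctrl_MV libraries. These were wide and overlapping groups, with a log2 fold change of -0.08 ± 0.25 (adjusted p = 0.814, edgeR). Sc5d, a sterol desaturase, had 41.7, 40.2 and 47.5 CPM in KD_MV libraries and 40.0, 37.4 and 43.7 CPM in Ctrl_MV libraries, with a log2 fold change of 0.10 ± 0.11 (adjusted p = 0.496, edgeR). Lbr and Tm7sf2 encode enzymes that catalyse the same sterol reduction, and LBR also anchors chromatin to the nuclear envelope. Lbr had 113.4, 102.6 and 83.1 CPM in KD_MV libraries and 60.7, 57.3 and 64.1 CPM in Ctrl_MV libraries, a log2 fold change of 0.72 ± 0.13. Tm7sf2 had 4.75, 5.72 and 3.79 CPM in KD_MV libraries and 2.26, 1.97 and 2.21 CPM in Ctrl_MV libraries, a log2 fold change of 1.15 ± 0.20. Both passed the test with separate groups, and Tm7sf2 had the lowest TPM of the 28 genes in KD_MV libraries (8.12 ± 1.79, SD, n = 3).

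**Figure D2:**
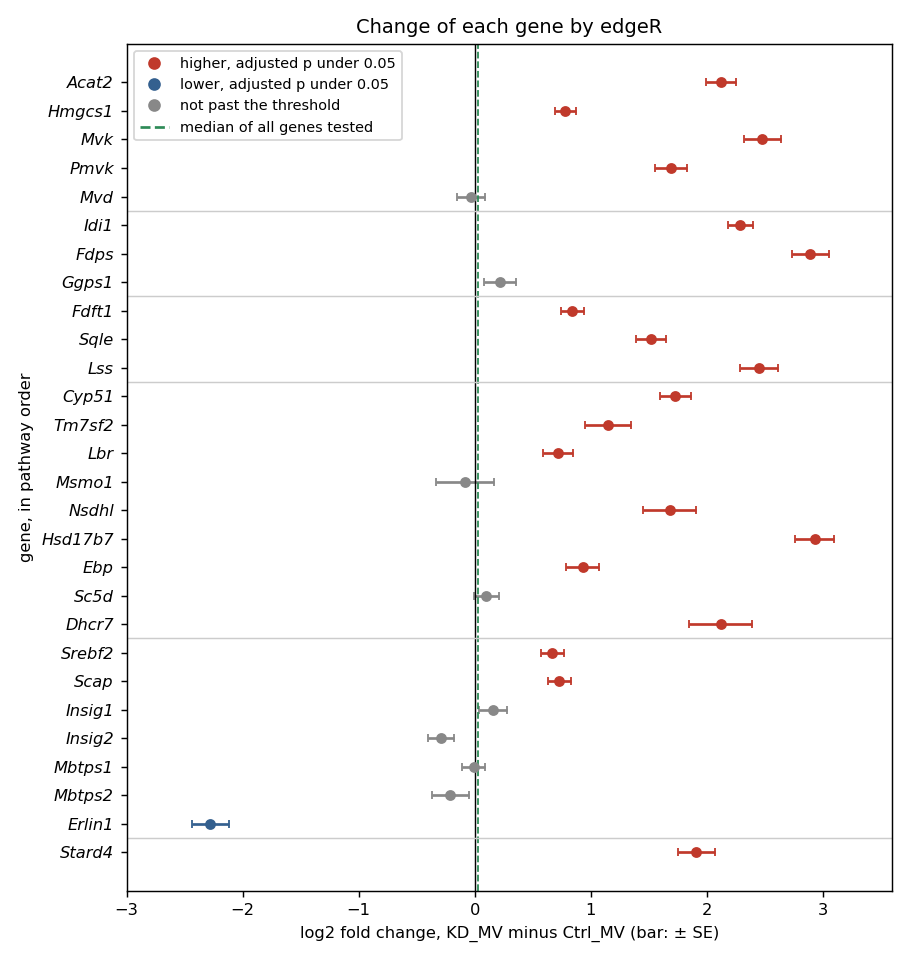
Log2 fold change (KD_MV minus Ctrl_MV, bar ± SE) of each gene by edgeR in pathway order, coloured by whether its adjusted p was under 0.05, with the median of all genes tested as a dashed line. Values run from -2.28 for Erlin1 to 2.93 for Hsd17b7, and the sensing genes lie closer to 0 than most enzymes, apart from Erlin1.

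The plot of log2 fold changes in pathway order sets these enzymes beside the genes that sense sterols. Of the 7 sensing genes, 2 rose, a share close to the 27.8% of all genes, and their median log2 fold change was -0.01. Srebf2, which encodes SREBP2, had 361.0, 394.0 and 361.2 CPM in KD_MV libraries and 254.4, 222.7 and 225.7 CPM in Ctrl_MV libraries. Scap, which encodes its escort to the Golgi, had 60.2, 63.2 and 57.7 CPM in KD_MV libraries and 38.9, 35.3 and 35.3 CPM in Ctrl_MV libraries. Both genes rose by similar amounts, with log2 fold changes of 0.67 ± 0.10 for Srebf2 and 0.73 ± 0.10 for Scap, and their groups did not overlap.

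Insig1, itself a target of SREBP2 whose product retains SCAP, had 58.4, 51.2 and 48.1 CPM in KD_MV libraries and 48.3, 42.5 and 50.7 CPM in Ctrl_MV libraries. Its groups overlapped and its log2 fold change was 0.16 ± 0.12 (adjusted p = 0.285, edgeR). Insig2, which encodes the other retention protein, had 18.2, 18.9 and 16.0 CPM in KD_MV libraries and 20.9, 22.3 and 22 CPM in Ctrl_MV libraries. Its KD_MV libraries were all below its Ctrl_MV libraries, but the log2 fold change of -0.29 ± 0.11 missed the threshold (adjusted p = 0.0550, edgeR). The ratio of Insig1 to Insig2 in TPM was 2.48, 2.27 and 2.62 in KD_MV libraries and 1.69, 1.59 and 1.94 in Ctrl_MV libraries. The ratios did not overlap and differed by 0.50 on the log2 scale (two-sided exact permutation p = 0.1, the smallest that 3 libraries against 3 allow).

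The proteases that release SREBP2 showed no difference that passed the test. Mbtps1, which makes the first cut, averaged 64.8 ± 4.88 CPM in KD_MV libraries and 65.1 ± 1.27 CPM in Ctrl_MV libraries (SD, n = 3 each), and its log2 fold change was -0.01 ± 0.10 (adjusted p = 0.960, edgeR). Mbtps2, which makes the second, averaged 16.9 ± 3.54 CPM in KD_MV libraries and 19.6 ± 1.64 CPM in Ctrl_MV libraries, and its log2 fold change was -0.21 ± 0.16 (adjusted p = 0.298, edgeR).

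Erlin1 was the gene of the set that fell. It encodes a membrane protein of the endoplasmic reticulum that forms a complex with ERLIN2, and in human cell lines the pair binds the SREBP, SCAP and INSIG complex and takes part in the degradation of endoplasmic reticulum proteins. Erlin1 had 24.8, 20.1 and 25.2 CPM in KD_MV libraries, against 97.9, 136.8 and 105.4 CPM in Ctrl_MV libraries. The highest KD_MV library was far below the lowest Ctrl_MV library, and the log2 fold change was -2.28 ± 0.16 (adjusted p = 1.01e-05, edgeR). Erlin2, named after its values were seen, had a log2 fold change of -0.66 ± 0.11 (adjusted p = 0.000962, edgeR), which was -0.26 when libraries were scaled by their totals alone (adjusted p = 0.0581). The ratio of Erlin1 to Erlin2 in TPM was 0.977, 0.815 and 0.945 in KD_MV libraries and 2.44, 3.36 and 2.78 in Ctrl_MV libraries, a log2 difference of -1.64 (two-sided exact permutation p = 0.1, the smallest possible).

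Stard4, which encodes a carrier that moves cholesterol between membranes inside the cell, had 35.5, 36.4 and 29.0 CPM in KD_MV libraries and 10.1, 7.26 and 9.45 CPM in Ctrl_MV libraries. The groups did not overlap, and it rose 3.77-fold (log2 1.91 ± 0.16, adjusted p = 2.49e-05, edgeR).

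Levels of different genes were compared in TPM, which corrects for transcript length. Srebf2 was the most abundant of the 28 in both groups, at 145 ± 10.2 TPM in KD_MV libraries and 61.5 ± 6.01 TPM in Ctrl_MV libraries (SD, n = 3 each). Fdps stood second in KD_MV libraries at 129.9 ± 19.1 TPM and was number 12 in Ctrl_MV libraries at 12.4 ± 1.79 TPM. Erlin1 was number 23 in KD_MV libraries at 14.6 ± 1.80 TPM and stood second in Ctrl_MV libraries at 47.5 ± 8.36 TPM. In KD_MV libraries the means of Srebf2 and Fdps differed by less than the SD of Fdps. Hsd17b7, with the largest fold, was a low-level transcript in both groups, at 10.9 ± 0.704 TPM in KD_MV libraries and 0.972 ± 0.352 TPM in Ctrl_MV libraries. The 19 genes that rose spanned 8.12 to 145 TPM in KD_MV libraries and 0.972 to 61.5 TPM in Ctrl_MV libraries, and the 8 that did not pass spanned 11.6 to 58.5 TPM in KD_MV libraries and 8.42 to 40.4 TPM in Ctrl_MV libraries. No uncalled gene was therefore as low in Ctrl_MV libraries as the lowest of those that rose.

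Summed over the 20 enzymes, the transcripts came to 756.6, 775.6 and 731.0 TPM in KD_MV libraries and 236.8, 221.5 and 248.9 TPM in Ctrl_MV libraries. The 3 isoprenoid genes summed to 207.4, 203.3 and 177.3 TPM in KD_MV libraries and 28.9, 29.0 and 32.4 TPM in Ctrl_MV libraries. The isoprenoid sums were separated by the widest relative gap among the enzyme groups, with Fdps the main part of the KD_MV sum. The sensing genes summed to 277.9, 295.0 and 273.0 TPM in KD_MV libraries and 191.4, 185.2 and 175.0 TPM in Ctrl_MV libraries, a narrower gap. Srebf2 was the largest part of the sensing sums, with means of 145 TPM in KD_MV libraries and 61.5 TPM in Ctrl_MV libraries. Erlin1, in the same sums, went the other way, with means of 14.6 and 47.5 TPM. TPM values carry no TMM scaling: on log2(TPM + 1) the median difference of all 13439 genes kept was 0.51.

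**Figure D3:**
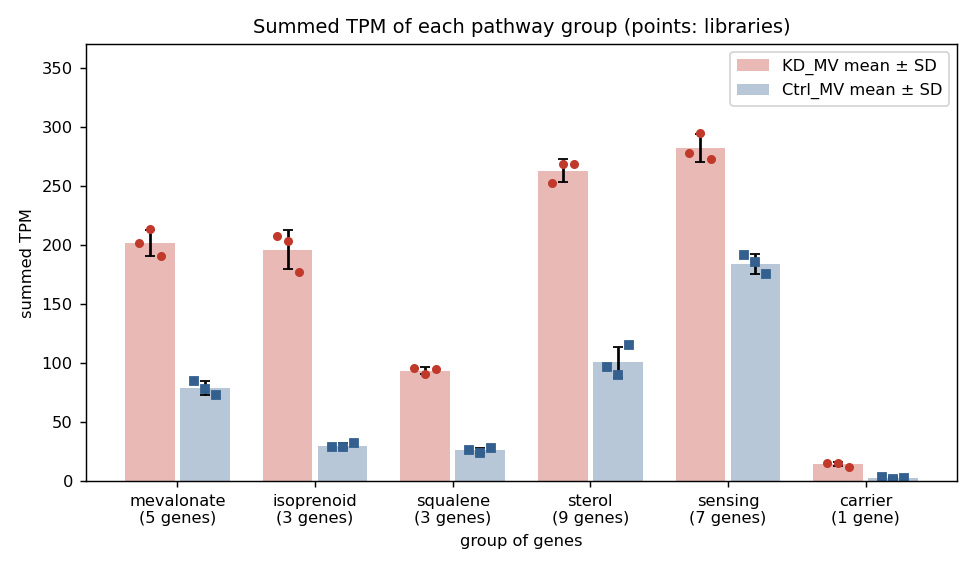
Summed TPM of each group of genes, with bars from 0 for the mean ± SD of 3 KD_MV libraries (red, left) and 3 Ctrl_MV libraries (blue, right) and points for the libraries. In every group the KD_MV points lie above the Ctrl_MV points, from 177.3 to 207.4 against 28.9 to 32.4 TPM for the isoprenoid genes and from 273.0 to 295.0 against 175.0 to 191.4 TPM for the sensing genes.

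The plot of summed TPM by group shows that the sterol enzymes and the sensing genes held the largest sums in KD_MV libraries, while in Ctrl_MV libraries the sensing genes exceeded every enzyme group. All 19 rising genes stayed higher under each of 5 scalings, and the genes near 0 depended on the scaling. Scaling by library totals alone moved the median log2 fold change of all genes to 0.43 and that of the 28 genes to 1.29. The genes that then joined those that rose were Mvd, Ggps1, Sc5d, Insig1 and Mbtps1, with log2 fold changes of 0.38 to 0.62, close to the shift itself. Relative to the median of all genes, the 28 stood 0.86 higher under either scaling. Lbr, Srebf2 and Scap no longer passed when the test asked for a change of more than 1.5-fold (adjusted p = 0.177, 0.228 and 0.0993, edgeR).

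**Figure D4:**
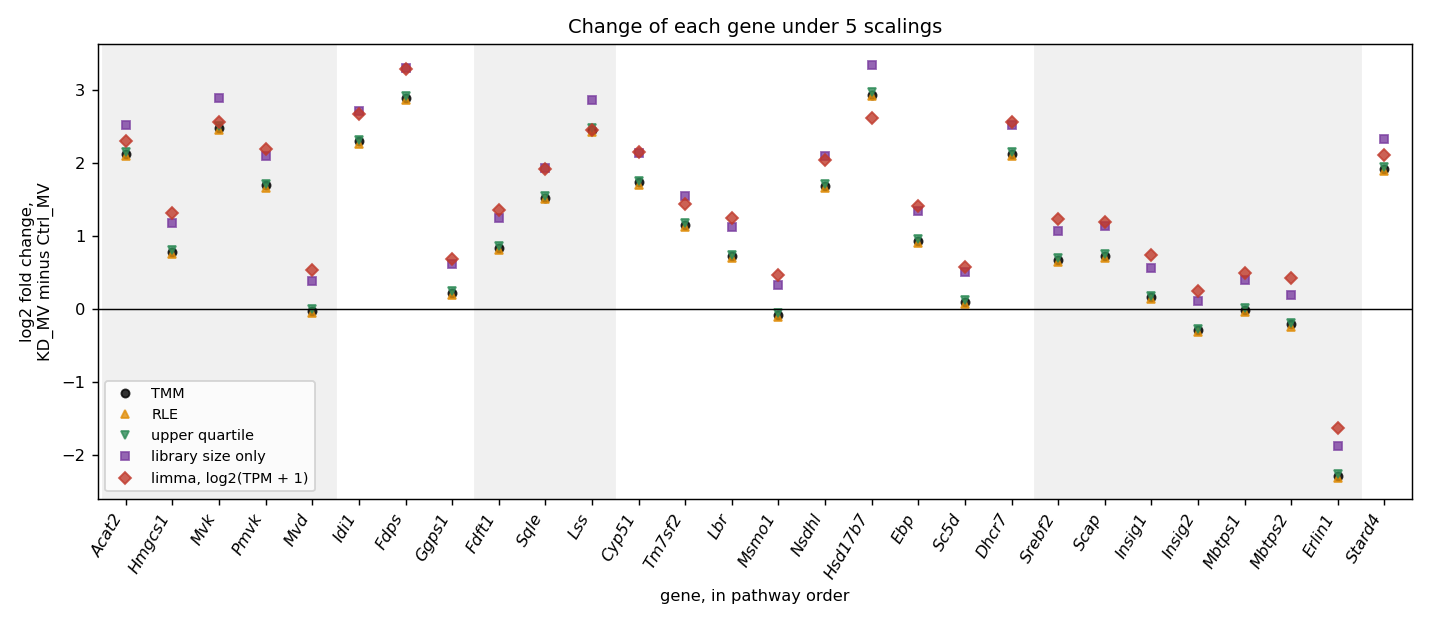
Log2 fold change (KD_MV minus Ctrl_MV) of each gene under TMM, RLE, upper-quartile and library-size scaling of counts and on log2(TPM + 1) by limma. Library-size values lie 0.40 to 0.41 above the TMM values in every gene, log2(TPM + 1) values lie from -0.32 (Hsd17b7) to 0.65 (Erlin1) relative to them, and Erlin1 stays below 0 under all 5.

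The plot of log2 fold changes under 5 scalings shows a parallel shift for library-size scaling, of 0.40 to 0.41 in each of the 28 genes. The log2(TPM + 1) values shifted unevenly relative to TMM, by a median of 0.47, with -0.32 for Hsd17b7, -0.01 for Lss, 0.07 for Mvk, 0.17 for Acat2 and 0.19 for Stard4, but 0.58 for Insig1, 0.64 for Mbtps2 and 0.65 for Erlin1. Adding 1 to TPM shrinks the differences of low genes. Counting can also be affected by neighbouring genes. In the files' coordinates, on mm10, Fdps spans chr3:89093588-89101959, Idi1 chr13:8885501-8892451, Lss chr10:76531588-76557138, Hsd17b7 chr1:169949535-169969241, Srebf2 chr15:82147266-82205376 and Erlin1 chr19:44034944-44069785. In the GENCODE M21 annotation all 28 are protein-coding genes, and 11 share exon bases with another gene on either strand. The sources used here do not give whether counting used strand. For Fdft1, 774 of 4227 exon bases lie opposite Ctsb, an abundant protease gene that averaged 2417 ± 60.8 CPM in KD_MV libraries and 4605 ± 194 CPM in Ctrl_MV libraries, and so moved the other way. For Tm7sf2, 532 of 4403 exon bases lie on the same strand as Vps51, whose log2 fold change of -0.41 ± 0.18 did not pass (adjusted p = 0.0790, edgeR). For Mbtps2, 2867 of 10105 exon bases are shared with Yy2 on the same strand, which had 552 reads in all 6 libraries beside 4262 for Mbtps2. For Fdps, 1124 of 4208 exon bases are shared with Gm43738, which had 87 reads beside 12628. How reads in shared exons were assigned was not tested.

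Genes next to the cholesterol route were counted from 6 further lists, to be read against the shares over all genes, which were 27.8% higher and 24.9% lower with TMM, and 46.4% higher and 12.5% lower with library-size scaling. Downstream of farnesyl diphosphate but outside sterol synthesis (prenylation, dolichol and ubiquinone), 3 of 17 genes rose (17.6%) and 2 fell (11.8%), both below the shares over all genes, with a median log2 fold change of 0.13. Library-size scaling gave 11 that rose (64.7%) and 1 that fell (5.88%). Pdss1, which helps build the ubiquinone side chain, had a log2 fold change of 0.65 ± 0.12, Zmpste24, a protease of prenylated proteins, 0.47 ± 0.10, and Srd5a3, a dolichol-forming reductase, -1.03 ± 0.10. Among 20 other regulators of SREBP processing and sterol-linked degradation, 3 rose (15%) and 13 fell (65%), with a median log2 fold change of -0.35. Library-size scaling gave 6 that rose (30%) and 2 that fell (10%), where the median of all genes had itself moved up by 0.40, and the share that rose was below that of all genes under either scaling. Tmem97, a sterol-responsive membrane protein of the endoplasmic reticulum, was the largest rise of that list, at 31.5 ± 4.60 CPM in KD_MV libraries and 11 ± 1.45 CPM in Ctrl_MV libraries (log2 1.52 ± 0.15, adjusted p = 7.11e-05, edgeR). Nfyc, an NF-Y subunit, had a log2 fold change of -0.80 ± 0.13 and Ubxn4, a protein of endoplasmic reticulum degradation, -0.65 ± 0.10. With library-size scaling Nfyc stayed below the threshold for adjusted p at -0.40 (0.0240) and Ubxn4 did not, at -0.24 (0.0582).

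In the SREBP1 and fatty acid list, 15 of 25 tested genes rose (60%) and 4 fell (16%), with a median log2 fold change of 0.80, and library-size scaling gave 18 that rose (72%) and 2 that fell (8%). Fasn, fatty acid synthase, averaged 155.8 ± 22.1 CPM in KD_MV libraries and 30.1 ± 1.39 CPM in Ctrl_MV libraries (log2 2.37 ± 0.13, adjusted p = 2.78e-06, edgeR). Acaca, which supplies its malonyl-CoA, rose by 1.73 ± 0.14 and Fads1, a fatty acid desaturase, by 1.89 ± 0.14 on the log2 scale. In the list of sterol uptake, transport, efflux and oxysterol genes, 5 of 26 rose (19.2%) and 13 fell (50%), with a median log2 fold change of -0.53. Library-size scaling gave 8 that rose (30.8%) and 6 that fell (23.1%), so under either scaling fewer rose and more fell than among all genes. Scarb1, a lipoprotein receptor for cholesterol ester, averaged 47.1 ± 5.0 CPM in KD_MV libraries and 12.7 ± 1.03 CPM in Ctrl_MV libraries (log2 1.89 ± 0.13). Soat2, which esterifies cholesterol, averaged 4.43 ± 0.884 CPM in KD_MV libraries and 145.1 ± 7.16 CPM in Ctrl_MV libraries, a log2 fold change of -5.03 ± 0.17 (adjusted p = 3.73e-07, edgeR). Nceh1, a cholesterol ester hydrolase, had a log2 fold change of -1.02 ± 0.09.

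**Figure D5:**
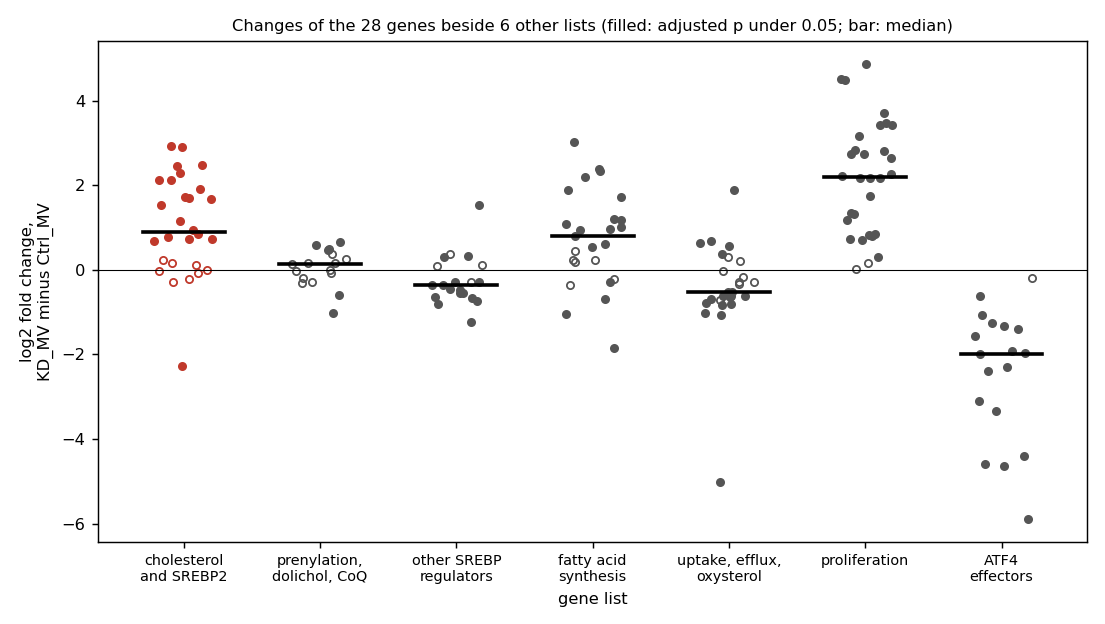
Log2 fold change (KD_MV minus Ctrl_MV) of the 28 genes (red) beside 6 other gene lists (grey), with filled points for adjusted p under 0.05 by edgeR and a bar at each list's median. Medians are 0.89 for the 28 genes, 0.80 for fatty acid synthesis, 2.20 for proliferation and -1.99 for ATF4 effectors.

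The plot of list medians also shows broader differences that accompanied those of the cholesterol genes. Of 30 proliferation genes 28 rose and none fell (median 2.20), with log2 fold changes of 3.70 for Mcm6, 4.49 for Uhrf1 and 4.86 for Pclaf. Of 18 effectors of ATF4, a stress-responsive transcription factor, 17 fell and none rose (median -1.99), with -4.60 for Atf5, -5.89 for Chac1 and -3.33 for Sesn2. Their part in the cholesterol gene result was not tested.

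The neutrophil label was checked against markers, and the makeup of the libraries differed between the groups. Counts of markers that rose or fell are to be read against 27.8% higher and 24.9% lower over all genes. The TPM sums carry no TMM scaling, and the median difference of all genes on log2(TPM + 1) was 0.51. Library totals were 38117403 to 42043434 reads in KD_MV libraries and 37346055 to 38826701 in Ctrl_MV libraries. None of the 14 neutrophil markers was at 0 in all 6 libraries, and they summed to 14650 to 19310 TPM in KD_MV libraries and 18860 to 20250 TPM in Ctrl_MV libraries, with 1 that rose and 8 that fell. Erythroid markers summed to 27810 to 31270 TPM in KD_MV libraries and 221600 to 251800 TPM in Ctrl_MV libraries, where 12 of 15 fell, and hemoglobin genes took 1.03 to 1.18% of reads in KD_MV libraries and 8.96 to 10.6% in Ctrl_MV libraries. Neutrophil precursor markers (5 of 7 rose) summed to 89.3 to 118.1 TPM in KD_MV libraries and 22.4 to 29.7 TPM in Ctrl_MV libraries, and eosinophil markers (7 of 10 rose) to 1056 to 1512 TPM in KD_MV libraries and 41.5 to 48.2 TPM in Ctrl_MV libraries. B-lineage markers (7 of 12 rose, 2 fell) summed to 1825 to 1909 TPM in KD_MV libraries and 665.6 to 823.2 TPM in Ctrl_MV libraries, and megakaryocyte markers (7 of 10 rose, 1 fell) to 216.9 to 257.7 TPM in KD_MV libraries and 72.6 to 88.6 TPM in Ctrl_MV libraries. Monocyte and macrophage markers (6 of 12 rose, 3 fell) summed to 845.7 to 946.8 TPM in KD_MV libraries and 594.7 to 744.2 TPM in Ctrl_MV libraries. The tested markers of that list with the highest CPM, Adgre1 and Csf1r, were among those that fell. Adgre1 averaged 331.3 ± 50.1 CPM in KD_MV libraries and 704.9 ± 54.8 CPM in Ctrl_MV libraries. Csf1r averaged 303.0 ± 25.0 and 409.6 ± 48.8 CPM. With library-size scaling their log2 fold changes were -0.68 and -0.03. T and NK markers (2 of 10 rose, 1 fell) summed to 86.7 to 102.2 TPM in KD_MV libraries and 51.0 to 57.4 TPM in Ctrl_MV libraries. The T and NK shares, 20% higher and 10% lower, were below those of all genes. The share of monocyte and macrophage markers that fell, 25%, was close to that of all genes. Library-size scaling gave 3 higher and 6 lower for neutrophil markers, and no lower B-lineage or T and NK marker. Of 19 hepatocyte and hepatoma markers, 7 were at 0 in every library, among them Fga, Fgb, Ahsg and Vtn. The list summed to 12.9 to 18.3 TPM in KD_MV libraries and 26.1 to 34.3 TPM in Ctrl_MV libraries. Of its 7 tested genes, 6 fell and none rose, and 4 fell with library-size scaling. Afp, the highest of them, averaged 7.75 ± 1.52 CPM in KD_MV libraries and 26.5 ± 6.40 CPM in Ctrl_MV libraries. The source of these transcripts was not tested. The part of these cell types in the differences of the cholesterol genes was not tested. Ezr, the gene knocked down in the donor cells, averaged 380 ± 42.1 CPM in KD_MV libraries and 359.3 ± 20.4 CPM in Ctrl_MV libraries of the recipient neutrophils (adjusted p = 0.569, edgeR), a measurement that does not check the labels.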

How the data were processed

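The files were a single deposited table of mouse neutrophil RNA-seq with, for each of 6 libraries, the authors' gene counts, TPM values and FPKM values; the FPKM columns were not used here. The submitters' processing notes name Trim Galore, Subread, featureCounts and mm10. Versions, strand handling and multi-mapping are not given in the sources used here. TPM columns summed to 999842 to 999905 per library. The kit was a stranded mRNA preparation, per the labels' protocols.

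The test on the deposited counts was edgeR's quasi-likelihood F test (edgeR 4.0.16, R 4.3.3), after tests on simulated data. Genes were kept by filterByExpr (minimum count 10, minimum total 15), scaled by TMM and adjusted by Benjamini-Hochberg at 0.05. CPM values use TMM library sizes. Ratios of TPM were compared by exact permutation tests, two-sided. Alternatives used DESeq2 1.42.0 and limma 3.58.1, other scalings and filters, leaving out each library and a replicate block. Library totals ran from 37346055 to 42043434 reads. The lowest gene, Tm7sf2, had 860 reads in all, with 73, 65 and 74 in Ctrl_MV libraries. At such counts, counting error is not small beside the spread between libraries. Within each group, no pair of libraries was identical or agreed within sampling noise. KD_MV replicate 3 stood furthest from its group. Its chi-square per degree of freedom was 97.85 against replicate 1 and 92.99 against replicate 2, beside 20.3 between replicates 1 and 2. Pairs of Ctrl_MV libraries gave 23.7 to 37.08.

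All 28 genes are named; from each other list of pathway genes, the named genes are the 3 of smallest p among those called. Genes that overlap a listed gene, and Erlin2, Acat3, Adgre1 and Csf1r, were named after their values were seen. The members and lists were chosen with earlier results of these data known. Columns were matched to libraries by title.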

Additional observations from a re-analysis of the deposited data

How the results depend on the processing

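The calls on the 28 genes held under most alternatives: 17 of the 28 kept direction and call under all 21, and none of the 19 rising genes turned direction. The number higher was 19 under every alternative except the following. Library-size scaling gave 24 (1 lower, median 1.29), limma on log2(TPM + 1) gave 25 (median 1.38) and on log2(TPM + 0.1) gave 25 (median 1.44), and a 1.5-fold threshold gave 16. Over all 16071 genes, library-size scaling gave 7455 higher (46.4%) and 2010 lower (12.5%), and the 1.5-fold threshold 2180 (13.6%) and 1705 (10.6%). The main test gave 4464 (27.8%) and 3995 (24.9%). The TPM fits tested 13439 genes. With a pseudocount of 1 they gave 7719 higher (57.4%) and 1228 lower (9.14%), and with 0.1 they gave 7690 (57.2%) and 1221 (9.09%). Insig2 joined Erlin1, making 2 lower, under RLE factors, the stricter CPM filter, DESeq2, scaling without hemoglobin genes and halved counts (adjusted p for Insig2 0.0339 to 0.0489). Leaving out each library in turn gave 19 listed genes higher each time, 1 to 2 lower and medians of 0.84 to 0.94. Of the 16415 to 16653 genes then tested, 3809 to 4494 were higher (23.1 to 27.4%) and 3478 to 4216 lower (20.9 to 25.7%). The highest of both counts came without KD_MV replicate 3. Mbtps2 was the second lower gene in that fit (log2 -0.40, adjusted p = 0.0296, edgeR).

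Genes near 0 changed sign. Mbtps1 was 0.02 with upper-quartile factors, 0.40 with library size, 0.05 with no filter, 0.49 and 0.52 with pseudocounts of 1 and 0.1 TPM, 0.05 without KD_MV replicate 3 and 0.01 without Ctrl_MV replicate 2 (range without each library -0.05 to 0.05). Mvd was 0.38 with library size, 0.03 with no filter, 0.53 and 0.54 with TPM, 0.02 without KD_MV replicate 3 and 0.08 without Ctrl_MV replicate 1 (range -0.11 to 0.08). Msmo1 was 0.33 with library size, 0.46 and 0.47 with TPM, 0.13 without KD_MV replicate 1 and 0.18 without Ctrl_MV replicate 3 (range -0.24 to 0.18). Insig2 was 0.11, 0.25 and 0.27, and Mbtps2 0.19, 0.43 and 0.46, with library size and both TPM fits. The cause was not tested beyond the shift of the all-gene median.

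With the replicate block, 19 listed genes were higher and 1 lower (median 0.88), with 4123 and 3676 genes over the whole table. Same-numbered libraries had deviations correlated at -0.01, -0.10 and -0.04, and differently numbered ones at -0.06 to 0.11. With 3 libraries per group, these values gave no sign of a shared effect of the replicate number but cannot show its absence. Such correlations cannot tell whether the libraries were prepared in pairs.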

Other observations

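Counts and TPM of the same library were not fully proportional for some of the 28 genes. Dividing counts by TPM and scaling within each library, the largest value over the 6 libraries was 1.98 times the smallest for Dhcr7, 1.43 times for Hsd17b7 and 1.37 times for Mbtps2. Over 11304 genes with 50 or more reads in every library the median of this quotient was 1.07, and 5.05% of them exceeded 1.5.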
